A study of Mus musculus with 12 samples.

Results

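The genes described here are 7 complement components that macrophages can make: C1qa, C1qb and C1qc, which encode the chains of C1q, together with C4b, C3, Cfb (factor B) and Cfp (properdin). They were chosen by name: every array probe whose gene name in the scanner files was one of these symbols, or an older symbol for the same gene, was taken, which gave 8 probes of 41174 on the array and 7 genes of 18426 tested. Each gene had 1 probe except C3, which had 2. C3's main probe was printed in 10 spots per array, and every other probe of these genes in 1 spot.

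RNA of bone marrow macrophages from mice of the strains Balb/cAnNCrl (Balb/c below) and C57BL6/J (C57BL6 below) was hybridised to 12 Agilent arrays labelled with 1 dye. Per the labels, donor mice of either strain were aged 8 to 12 weeks and their cells were pooled from 2 males and 1 female. All cells were grown in human recombinant CSF1 (200 ng/ml), the growth factor that drives marrow cells into macrophages. Each strain had 3 groups of 2 arrays: mock, kept 18 h without IL-4; IL-4 (interleukin-4, 10 ng/ml) for 4 h; and IL-4 for 18 h, with IL-4 added from day 7. No mock was kept for 4 h, so the 4 h arrays are set against the 18 h mock. The treatment text shared by all samples also mentions LPS, but no label of any sample assigns it. The series text describes 2 independent experiments with different littermates, so each p-value rests on the spread between 2 pooled cultures per group.

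Complement is a cascade of plasma proteins that tags microbes and dying cells for removal. In the classical pathway C1q binds antibody or altered surfaces and its attached proteases cleave C4 and C2, while the alternative pathway amplifies C3 deposition with factor B as the protease and properdin as the stabiliser. Liver makes most circulating C3 and factor B, whereas macrophages and other myeloid cells are the main source of C1q and a source of properdin.

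RefSeq promoters (GRCm38.p6, from 250 bases before to 50 bases after the annotated start) were given for 4 of the 7 genes: C1qb, C1qc, C3 and Cfp. These are shown because they were the ones given, and none was given for C1qa, C4b or Cfb. Of the genes shown, C1qb and C1qc were lower in Balb/c, C3 was lower at 18 h of IL-4 and Cfp was neither. All 4 windows are on the minus strand and are written 5′ to 3′ along the gene: C1qb at chr4:136886151-136886450, C1qc at chr4:136892865-136893164, C3 at chr17:57228087-57228386 and Cfp at chrX:20931506-20931805. Capitals mark GAGGAA, the core bound by ETS factors such as PU.1, or its reverse complement.
C1qb: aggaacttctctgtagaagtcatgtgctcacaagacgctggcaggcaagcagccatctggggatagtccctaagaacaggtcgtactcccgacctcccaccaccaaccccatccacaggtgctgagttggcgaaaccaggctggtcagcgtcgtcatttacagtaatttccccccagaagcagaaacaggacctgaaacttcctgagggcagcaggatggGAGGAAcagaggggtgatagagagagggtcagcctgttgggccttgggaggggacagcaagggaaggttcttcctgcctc
C1qc: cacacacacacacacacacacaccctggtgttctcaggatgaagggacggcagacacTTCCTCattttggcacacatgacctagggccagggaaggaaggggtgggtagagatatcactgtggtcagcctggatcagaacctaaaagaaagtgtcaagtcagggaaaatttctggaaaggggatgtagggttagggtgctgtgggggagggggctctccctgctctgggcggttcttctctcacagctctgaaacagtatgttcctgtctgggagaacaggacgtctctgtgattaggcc
C3: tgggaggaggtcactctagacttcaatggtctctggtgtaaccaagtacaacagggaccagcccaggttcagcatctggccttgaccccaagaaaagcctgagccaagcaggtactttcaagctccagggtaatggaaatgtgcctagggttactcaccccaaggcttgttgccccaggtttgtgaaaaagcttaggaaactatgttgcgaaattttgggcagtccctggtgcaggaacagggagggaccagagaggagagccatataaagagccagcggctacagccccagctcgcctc
Cfp: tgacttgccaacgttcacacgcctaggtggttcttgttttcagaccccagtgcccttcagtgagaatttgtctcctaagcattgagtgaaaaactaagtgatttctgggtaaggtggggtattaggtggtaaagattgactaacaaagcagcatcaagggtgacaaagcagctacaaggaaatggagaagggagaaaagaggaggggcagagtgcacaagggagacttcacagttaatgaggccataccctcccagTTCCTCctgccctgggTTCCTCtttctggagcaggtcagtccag
GAGGAA was found once in the C1qb window, with its first base at position -30 from the start site, and once in the C1qc window on the other strand, at position -193. Cfp held 2 copies on the other strand, both after the start site, and C3 held none. Of 32851 RefSeq promoters of this length, 28.3% held GAGGAA on either strand. The other motifs searched on both strands were TTCNNNGAA (the site of STAT factors in general, in 8.3% of promoters), the STAT6 site with 1 more base in the middle of that motif (in 6.95%) and the interferon-stimulated response element (in 3.44%), and none of the 4 windows held any of them. GAGGAA overlapped no other motif in these windows. These are matches of letters in the reference sequence and were not measured as binding sites.

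Levels are log2 processed intensities minus the 75th percentile of the array, so 0 is the level of a spot brighter than 75% of the array, and the levels of different probes cannot be set against each other. Replicate arrays of the same group correlated at 0.974 to 0.989, and 54.9 to 69.7% of the 43379 spots per array were well above background. All 7 macrophage markers, among them Csf1r, Adgre1 and Cd68, were well above background on every array. Their summed linear level, in units of the array's 75th percentile, was 533 to 661 in C57BL6 and 535 to 729 in Balb/c. Such a sum mainly follows its highest-reading probes. The summed level of the neutrophil genes, 7 of 8 of which were on the array, was 8.00 to 15.4 in C57BL6 and 2.05 to 4.51 in Balb/c. The 7 probes used for the members were well above background on all 12 arrays, and C3's second, dim probe was on 10. Arrays sat on 3 slides: slide 1 held Balb/c only, slide 3 C57BL6 only, and slide 2 held 2 arrays of each strain. Calls are at an adjusted p below 0.05 (limma, Benjamini-Hochberg over all 18426 genes), and errors of changes are standard errors.

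The C1q chains separated the strains. C1qb, averaged over the 3 conditions, was 7.57-fold lower in Balb/c than in C57BL6, C1qa 2.76-fold lower and C1qc 2.54-fold lower, and for each chain all 6 Balb/c arrays were below all 6 C57BL6 arrays. Cfb went the other way, 1.55-fold higher in Balb/c. In all, 4 of the 7 genes were called, 3 lower and 1 higher, against 17.6% of all tested genes called in that comparison. The median change of the 7 was -0.61, beside -0.05 over all genes. Each C1q chain was read by 1 probe in 1 spot, and whether Balb/c sequence differs under these probes was not tested, so the folds are those of the probe signals.

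The 6 arrays of a strain are not 6 independent cultures if replicate numbers mark the 2 experiments. With the 3 same-numbered arrays of a strain averaged into 1 value, which left 2 values per strain, C1qb alone of the 7 was called (-2.92 ± 0.27, adjusted p = 0.0153, limma), against 2.41% of all genes. C1qa (-1.47 ± 0.32, adjusted p = 0.119), C1qc (-1.35 ± 0.32, adjusted p = 0.143) and Cfb (0.63 ± 0.26, adjusted p = 0.343) then missed the threshold, with unadjusted p = 0.00617, 0.00888 and 0.0581. This alternative was added after the data were seen.

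C1qb encodes the B chain of C1q. In C57BL6 it stood at 5.47 and 5.16 in mock, 5.42 and 5.44 after 4 h and 5.40 and 5.21 after 18 h of IL-4. In Balb/c it stood at 2.88 and 2.16 in mock, 2.90 and 2.00 after 4 h and 2.37 and 2.27 after 18 h. Every Balb/c value was thus more than 2 log2 units below every C57BL6 value. The conditions of a strain overlapped, except that the C57BL6 4 h arrays lay just above the 18 h arrays. The change over conditions was -2.92 ± 0.19 (adjusted p = 3.53e-05, limma, n = 6 arrays per strain).

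C1qa, the A chain, stood in C57BL6 at 5.26 and 5.10 in mock, 4.96 and 4.88 after 4 h and 4.63 and 4.47 after 18 h. In Balb/c it stood at 4.19 and 3.35 in mock, 4.07 and 2.98 after 4 h and 3.19 and 2.72 after 18 h. The C57BL6 groups fell in the order mock, 4 h, 18 h without overlap, whereas the Balb/c groups overlapped their neighbours in the same order. The strain change was -1.47 ± 0.22 (adjusted p = 0.00331, limma).

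C1qc, the C chain, stood in C57BL6 at 6.92 and 6.70 in mock, 6.50 and 6.39 after 4 h and 6.56 and 6.28 after 18 h. In Balb/c it stood at 5.94 and 5.15 in mock, 5.80 and 4.65 after 4 h and 5.08 and 4.65 after 18 h. The strain change was -1.35 ± 0.23 (adjusted p = 0.00559, limma). In C57BL6 the mock arrays were the highest and the 4 h and 18 h arrays overlapped, and in Balb/c each group overlapped the next.

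In mock cells alone, C1qb was the single member called (-2.80 ± 0.33, adjusted p = 0.00250, limma), against 5.25% of all genes. C1qa was -1.41 ± 0.39 (adjusted p = 0.0870) and C1qc -1.27 ± 0.40 (adjusted p = 0.125), so both had sizes like those over all conditions with 2 arrays per strain.

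**Figure D1:**
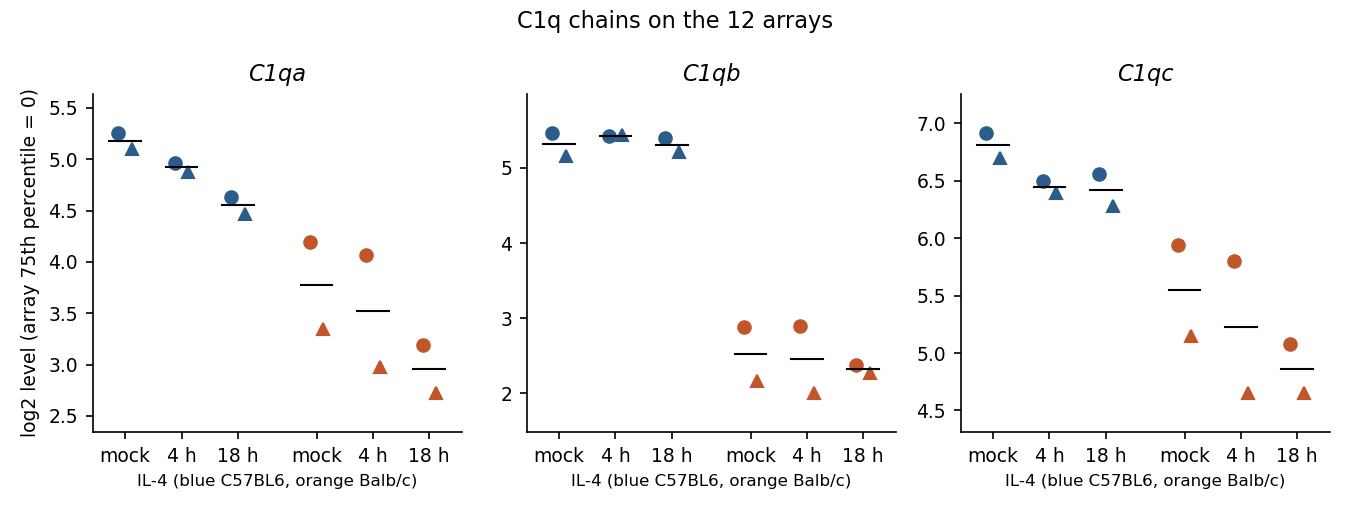
Log2 level of C1qa, C1qb and C1qc on each of the 12 arrays, with C57BL6 in blue and Balb/c in orange, circles for replicate 1, triangles for replicate 2 and a bar for the group mean; each panel has its own axis range. For every chain the 6 Balb/c points lie below the 6 C57BL6 points, and in mock and at 4 h the Balb/c circles lie well above the triangles.

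The strain differences of the chains were unequal. Taken from each chain's own C57BL6 mean, the 6 Balb/c arrays ran from -3.35 to -2.45 in C1qb, from -2.16 to -0.69 in C1qa and from -1.91 to -0.62 in C1qc. The C1qb range did not overlap that of either other chain, and those of C1qa and C1qc overlapped. The log2 ratio of C1qb to C1qa within an array, read only for its difference between strains, ran from 0.06 to 0.77 in C57BL6 and from -1.31 to -0.45 in Balb/c. That of C1qa to C1qc ran from -1.93 to -1.52 in C57BL6 and from -1.93 to -1.67 in Balb/c. The difference between the chains' strain changes was not tested, and each chain was read by 1 probe in 1 spot.

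**Figure D2:**
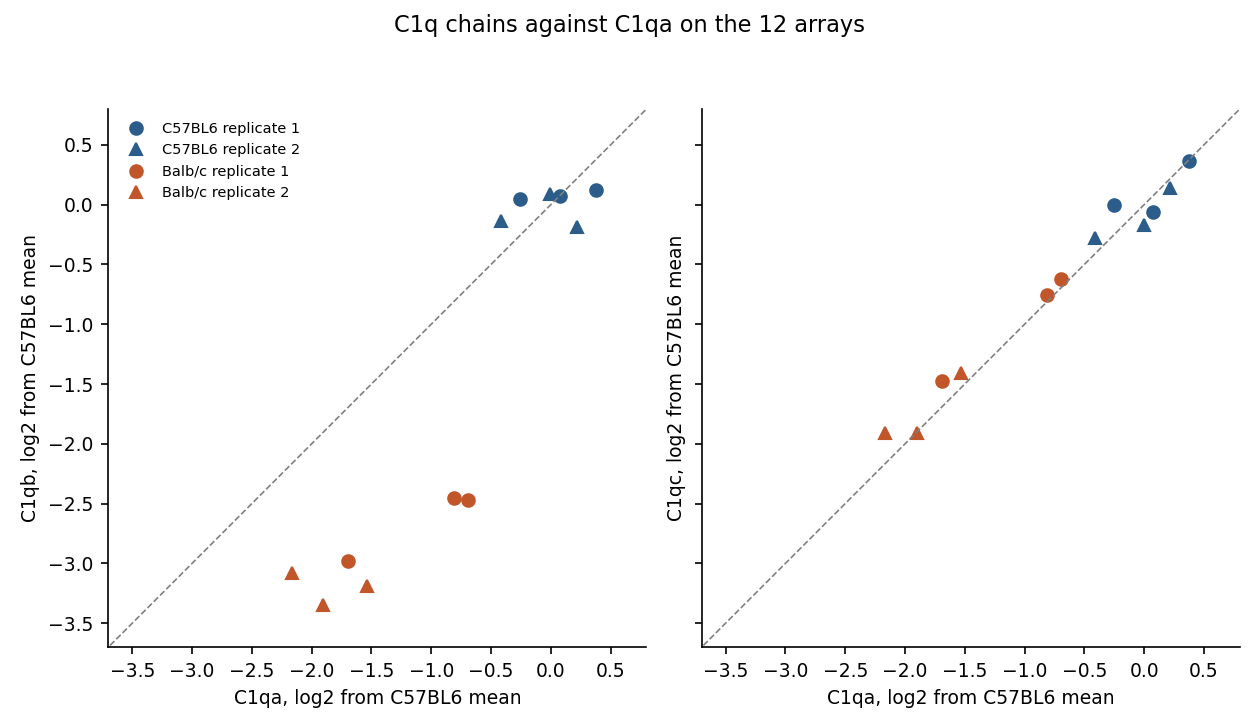
Each array's C1qb (left) and C1qc (right) against its C1qa, all as log2 difference from the mean of the 6 C57BL6 arrays, with a dashed line where both axes are equal. C1qc follows the line in both strains, whereas the 6 Balb/c arrays lie between -3.35 and -2.45 for C1qb and between -2.16 and -0.69 for C1qa, below the line.

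Replicate 1 was the higher of the Balb/c pair for every chain and condition. For C1qa, Balb/c replicate 1 minus replicate 2 was 0.84 in mock, 1.09 at 4 h and 0.47 at 18 h, against 0.09 to 0.16 in the 3 C57BL6 groups. C1qc gave 0.80, 1.15 and 0.43 in Balb/c, against 0.11 to 0.28 in C57BL6. C1qb gave 0.72, 0.91 and 0.10 in Balb/c, against 0.31, -0.01 and 0.19 in C57BL6, so at 18 h its Balb/c gap was the smaller. Over all genes the median absolute gap between replicates was 0.33, 0.43 and 0.29 in the same 3 Balb/c groups and 0.21 to 0.30 in C57BL6. Within a strain, over 6 arrays that share experiments and slides, C1qa and C1qc correlated at 0.84 in C57BL6 and 0.99 in Balb/c, while C1qa and C1qb correlated at 0.29 and 0.88.

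With slide as a block the change was -2.07 ± 0.33 for C1qa (adjusted p = 0.0221, limma), -3.36 ± 0.33 for C1qb (adjusted p = 0.00452) and -1.98 ± 0.34 for C1qc (adjusted p = 0.0271). Within slide 2, Balb/c 4 h replicate 2 was 1 of 2 Balb/c arrays and differed from C57BL6 4 h replicate 1 by -1.98 in C1qa, -3.43 in C1qb and -1.85 in C1qc. Slide 2 held replicate 2 alone of Balb/c and replicate 1 alone of C57BL6, so there strain and replicate number cannot be told apart. No other slide held both strains, so the changes with slide as a block compare the strains through these arrays. Replicate 2 was the lower of each Balb/c pair for every chain. The Balb/c mock arrays, both on slide 1, differed between replicates by the 0.84, 0.72 and 0.80 given above.

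Markers of other cells moved with strain too, in a comparison that called 17.6% of all genes. All 6 of the tested neutrophil genes were lower in Balb/c, for example S100a8, a calcium-binding protein of neutrophils that was well above background on all 12 arrays (-1.68 ± 0.16, adjusted p = 3.06e-04, limma). Of the tested macrophage markers, 0 of 7 were called between strains (limma), and their summed levels overlapped. Of 5 tested dendritic cell genes 2 were higher in Balb/c, among them the chemokine receptor Ccr7 (2.05 ± 0.32, adjusted p = 0.00389). Of 6 tested stromal genes Pdgfrb alone was called (3.76 ± 0.25, adjusted p = 3.66e-05), and the others ran from -0.26 (Pdgfra) to 0.31 (Cxcl12). The summed level of the stromal genes, Pdgfrb included, was 0.373 to 0.653 in C57BL6 and 0.845 to 1.49 in Balb/c. The part of these cells in the complement differences was not tested, and in pooled RNA fewer cells of a type and less RNA per cell cannot be told apart.

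After IL-4, Cfb and C3 were lower at 18 h and not at 4 h. Averaged over strains, Cfb was 2.75-fold lower at 18 h than in mock and C3 1.88-fold lower. These were the 2 of 7 members called, against 9.37% of all genes. At 4 h 0 of 7 were called against 6.74% of all genes (limma), and 0 of 7 had an unadjusted p below 0.05. The median change of the 7 was -0.54 at 18 h and -0.09 at 4 h, beside 0 and 0.01 over all genes.

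Cfb encodes the protease of the alternative pathway convertase. In C57BL6 it stood at 1.05 and 1.35 in mock, 0.92 and 1.33 after 4 h and -0.49 and 0.27 after 18 h. In Balb/c it stood at 2.21 and 1.74 in mock, 1.90 and 1.66 after 4 h and 0.37 and 0.35 after 18 h. In both strains mock and 4 h overlapped and both 18 h arrays lay below them.
The change at 18 h was -1.46 ± 0.21 (adjusted p = 0.00364, limma) over strains, -1.31 ± 0.29 in C57BL6 (adjusted p = 0.0478) and -1.61 ± 0.29 in Balb/c (adjusted p = 0.0219). In each strain Cfb was 1 of 7 members called, against 4.28% of genes in C57BL6 and 3.73% in Balb/c. Against the 4 h arrays Cfb at 18 h had changed by -1.32 ± 0.21 (adjusted p = 0.0136), again the single member called, against 3.73% of genes.
Within a slide the 18 h change was -1.60 on slide 1 (Balb/c) and -1.46 on slide 3 (C57BL6). Within C57BL6 the call was lost on leaving out any of the 4 arrays, with adjusted p from 0.0516 (without IL-4 18 h replicate 2) to 0.258 (without IL-4 18 h replicate 1), and in Balb/c on leaving out mock replicate 1 (adjusted p = 0.138), IL-4 18 h replicate 1 (0.117) or IL-4 18 h replicate 2 (0.124). Over both strains it held without any 1 array, at adjusted p from 0.00441 to 0.0190. The comparison with 4 h was lost without Balb/c IL-4 18 h replicate 1 (0.0550) and without C57BL6 IL-4 4 h replicate 2 (0.0635).

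C3, the component on which all pathways converge, stood in C57BL6 at 5.82 and 6.12 in mock, 5.88 and 5.99 after 4 h and 5.44 and 5.13 after 18 h. In Balb/c it stood at 5.72 and 5.16 in mock, 6.00 and 5.22 after 4 h and 4.57 and 4.06 after 18 h. The 18 h arrays were the lowest of their strain in both. The change over strains was -0.91 ± 0.23 (adjusted p = 0.0441, limma), with -0.68 ± 0.32 in C57BL6 (adjusted p = 0.324) and -1.13 ± 0.32 in Balb/c (adjusted p = 0.120).
The call over strains was lost on leaving out any 1 of the 8 arrays except Balb/c mock replicate 2: adjusted p was 0.134 when Balb/c mock replicate 1 was out, 0.0585 and 0.145 without Balb/c IL-4 18 h replicates 1 and 2, 0.0747 and 0.140 without C57BL6 mock replicates 1 and 2, and 0.0955 and 0.152 without C57BL6 IL-4 18 h replicates 1 and 2. Within a slide the change was -0.87 on slide 1 (Balb/c) and -0.84 on slide 3 (C57BL6). C3's second probe was dim, at -4.71 and -4.22 in C57BL6 mock and -4.82 and -4.97 at 18 h. It stood at -4.48 and -5.05 in Balb/c mock and was not well above background on either Balb/c 18 h array.

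**Figure D3:**
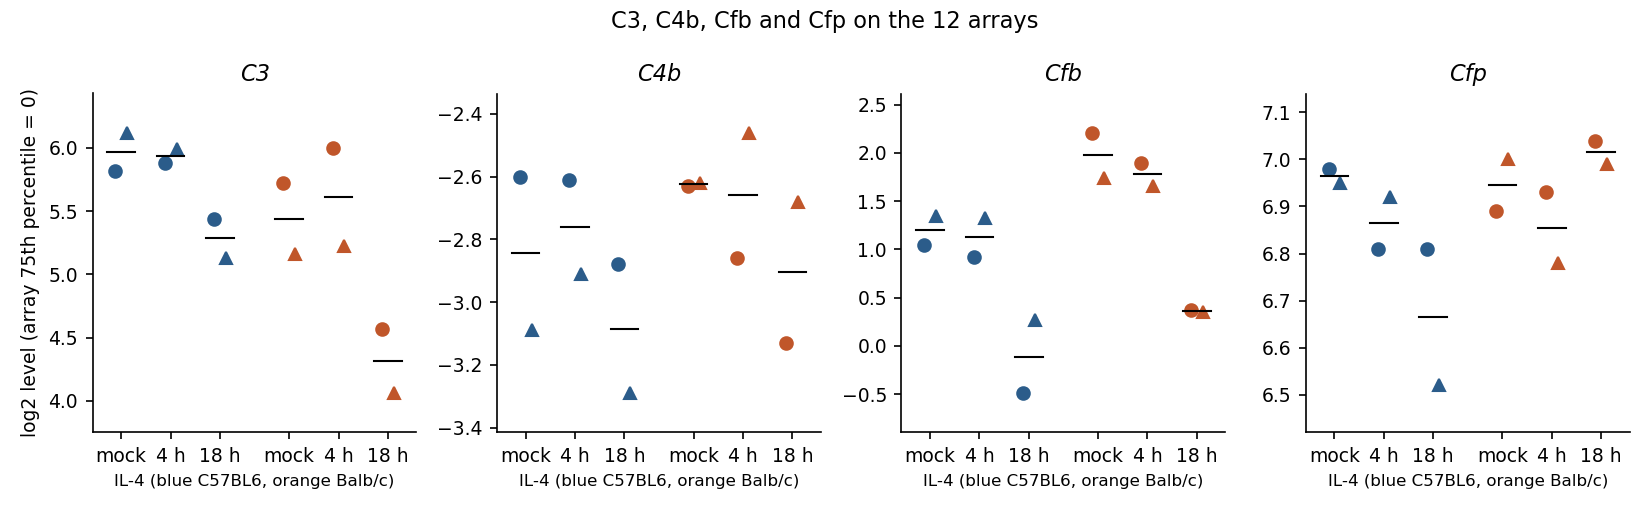
Log2 level of C3 (main probe), C4b, Cfb and Cfp on each of the 12 arrays, with C57BL6 in blue and Balb/c in orange, circles for replicate 1, triangles for replicate 2 and a bar for the group mean; each panel has its own axis range. In C3 and Cfb the 18 h points are the lowest of each strain, whereas all Cfp values lie between 6.52 and 7.04.

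Replicate numbers were taken to mark the 2 experiments, which the labels do not state, because same-numbered arrays of a strain deviated together. In C57BL6 mock and 4 h, and in Balb/c 4 h and 18 h, the replicates were also split over slides in the same way. There a shared deviation by slide and one by experiment cannot be told apart. In the other C57BL6 pairs of groups the replicate deviations correlated at 0.30 and 0.15, against -0.31 to 0.14 between strains. The pairing is therefore less sure in C57BL6. With the replicate number within strain as a block, more members were called at 18 h. Over strains 4 of 7 were called, all lower, against 24.9% of genes in that fit: Cfb (-1.46 ± 0.11, adjusted p = 8.22e-04, limma), C3 (-0.91 ± 0.12, adjusted p = 0.00422), C1qa (-0.72 ± 0.11, adjusted p = 0.00744) and C1qc (-0.54 ± 0.12, adjusted p = 0.0283). Without the block C1qa had adjusted p = 0.168 and C1qc 0.329. C1qa, C3 and Cfb were also called within each strain with the block. In C57BL6 C1qa was at -0.63 (adjusted p = 0.0446) and C3 at -0.68 (adjusted p = 0.0432), against 17.4% of genes. In Balb/c C1qa was at -0.81 (adjusted p = 0.0250) and C3 at -1.13 (adjusted p = 0.0114), against 15.1%.
Against 4 h, C1qa (-0.47, adjusted p = 0.0401), C3 (-0.97, adjusted p = 0.00648) and Cfb (adjusted p = 0.00244) were called with the block, against 16.8% of genes, whereas C3 without it had adjusted p = 0.0594. C1qb stayed uncalled at 18 h with and without the block, at -0.11 ± 0.23 (adjusted p = 0.859) without it. No member was called at 4 h with the block either. Without the block, 2 of the 7 macrophage markers were called at 18 h, both lower, beside 9.37% of all genes. They were Fcgr1 (-1.93 ± 0.17, adjusted p = 4.39e-04, limma) and Mertk (-1.19 ± 0.22, adjusted p = 0.0113). The other macrophage markers ran from -0.17 (Cd68) to 0.08 (Adgre1). The summed macrophage level was 533 to 569 in C57BL6 at 18 h against 589 to 661 in mock, and 535 to 616 against 643 to 729 in Balb/c. Fcgr1, one of the high-reading genes of that sum, went from a mean of 7.01 in mock to 5.04 at 18 h in C57BL6. In Balb/c it went from 6.81 to 4.91. Of 6 neutrophil and 4 mast cell and basophil genes 1 each was lower at 18 h (Camp and Kit), neither well above background on every array. The summed neutrophil level was 8.00 to 12.0 at 18 h against 12.1 to 15.4 in mock in C57BL6, and 2.05 to 3.06 against 3.44 to 4.25 in Balb/c. S100a9 read highest in that list, with a mean of 3.44 in C57BL6 mock and 2.95 at 18 h. In Balb/c its means were 1.62 and 1.03. The summed B cell level was 1.04 to 1.58 against 2.16 to 3.10 in C57BL6 and 0.941 to 1.05 against 1.05 to 1.65 in Balb/c, with 0 of 5 genes called (limma). Cd79b read highest in that list, with a mean of 1.24 in C57BL6 mock and 0.16 at 18 h. In Balb/c its means were 0.04 and -0.48. The sums alone therefore do not show a fall across each list. Gene by gene over strains, all tested neutrophil genes were lower at 18 h, from -1.31 (Camp) to -0.33 (Mpo), with Camp alone called. The B cell genes ran from -0.80 (Cd79b) to 0.46 (Pax5). The part of these cells in the complement changes was not tested.

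At 4 h of IL-4 no member was called within a strain, 0 of 7 in C57BL6 against 3.23% of genes and 0 of 7 in Balb/c against 1.43%, and none had an unadjusted p below 0.05 (limma). The changes over strains ran from -0.34 ± 0.28 for C1qc to 0.07 ± 0.23 for C3, with 95% intervals of -0.99 to 0.30 and -0.45 to 0.59. The IL-4 effect differed between strains for 0 of 7 members and 0% of all genes at either time (limma), with 446 genes at an unadjusted p below 0.05 at 4 h and 973 at 18 h, none of them a member. For C3 at 18 h that difference was -0.45, with a 95% interval of -1.49 to 0.59, and for Cfb -0.30, with an interval of -1.25 to 0.66.

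Cfb also differed by strain. Within each condition both Balb/c arrays were above both C57BL6 arrays, and the change over conditions was 0.63 ± 0.17 (adjusted p = 0.0368, limma). With slide as a block it was 0.78 (adjusted p = 0.222), and within slide 2 Balb/c 4 h replicate 2 was 0.74 above C57BL6 4 h replicate 1. The call held without Balb/c mock replicate 2, Balb/c IL-4 4 h replicate 2 or C57BL6 IL-4 18 h replicate 2 (adjusted p = 0.0359, 0.0455 and 0.0201). It was lost without any of the other 9 arrays, with adjusted p from 0.0541 (without C57BL6 IL-4 4 h replicate 2) to 0.0953 (without C57BL6 IL-4 4 h replicate 1): 0.0560 and 0.0864 without C57BL6 mock replicates 2 and 1, 0.0789 without C57BL6 IL-4 18 h replicate 1, 0.0895 when Balb/c mock replicate 1 was out, 0.0862 for Balb/c IL-4 4 h replicate 1, and 0.0835 and 0.0777 for Balb/c IL-4 18 h replicates 1 and 2. C3 was lower in Balb/c by -0.61 ± 0.18 over conditions, with adjusted p = 0.0573.

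Cfp and C4b passed the test in no comparison. Cfp, which stabilises the alternative pathway convertase, ran from 6.52 to 6.98 in C57BL6 and from 6.78 to 7.04 in Balb/c. Its change at 18 h over strains was -0.12 ± 0.11 (95% interval -0.37 to 0.13) and between strains 0.11 ± 0.09 (-0.10 to 0.31). C4b, one of the mouse genes for the C4 precursor, ran from -3.29 to -2.60 in C57BL6 and from -3.13 to -2.46 in Balb/c, with a change at 18 h of -0.26 ± 0.18 and between strains of 0.17 ± 0.15. C4a is nearly identical to C4b, so RNA of either could bind this probe and the value is uncertain. The C4a probe was not well above background on any of the 12 arrays.

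**Figure D4:**
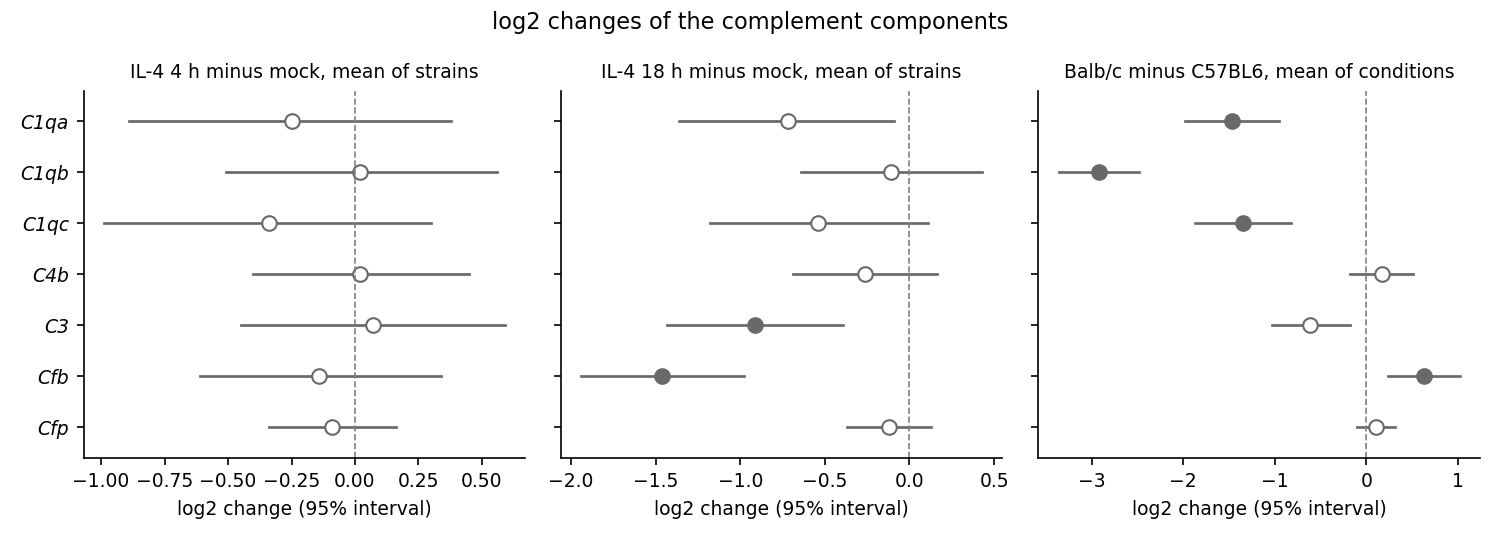
Log2 change with 95% interval for the 7 genes, for IL-4 4 h minus mock and IL-4 18 h minus mock (mean of strains) and for Balb/c minus C57BL6 (mean of conditions); filled points passed an adjusted p of 0.05. No gene is filled at 4 h, C3 and Cfb are filled at 18 h, and C1qa, C1qb, C1qc and Cfb are filled between strains, with C1qb at -2.92.

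The genes whose levels over the 12 arrays were most like a member's were taken from 2757 genes above background on all arrays that varied by at least 0.5 log2 (standard deviation), with Pearson's r as a description over arrays that share strain and treatment. C1qa and C1qc were each other's first match (r = 0.990). C1qa was then followed by Saraf (0.983) and Abcg3 (0.982), and C1qc by Cd5l (0.981), a secreted scavenger protein of macrophages, and Ctsh (0.980), the lysosomal protease cathepsin H. C1qb was most like Stk25 (0.988), Ercc1 (0.986) and Fggy (0.986), and not like either other chain to that degree (0.920 with C1qa and 0.926 with C1qc).
Cfb was most like Siglec1 (0.963), a sialic acid receptor of macrophages induced by interferon, then Dst (0.946) and Rab39 (0.939). Like Cfb, Siglec1 was lower at 18 h (-1.42 ± 0.19, adjusted p = 0.00316, limma) and higher in Balb/c (0.75 ± 0.16, adjusted p = 0.0150). Siglec1, and Gbp2 named next, were picked for likeness on these same arrays. Directions shared with Cfb or C3 follow from that choice and are no separate evidence. C3 was most like Gbp2 (0.949), an interferon-induced GTPase that fell by 1.72 at 18 h (adjusted p = 0.00162), Slc39a4 (0.939), a zinc importer, and H2-T10 (0.939). C4b (Plb1 at 0.912, Bmyc and Rundc3a at 0.899 and 0.895) and Cfp (Osr1 at 0.738, Slc39a8 and Tspan12 at 0.727 and 0.719) had weaker matches, the latter with a gene of little variation of its own.

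Other complement genes were counted from lists of 43 genes, of which 42 were on the array and 26 were tested. Between strains 8 of the 26 were called, 6 higher and 2 lower in Balb/c, beside 17.6% of all genes. At 18 h of IL-4 6 of 26 were called, 2 higher and 4 lower, beside 9.37%, and at 4 h 2 of 26, 1 in each direction, beside 6.74%. The median change of the 26 was 0.08 between strains and -0.18 at 18 h.

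Of the 8 tested classical and lectin pathway genes, which are proteases and recognition lectins, 4 were higher in Balb/c and none lower, beside 17.6% of all genes. Masp1 and Masp2, proteases that ride on mannose-binding lectins, were higher by 2.96 ± 0.18 (adjusted p = 2.73e-05, limma) and 1.97 ± 0.15 (adjusted p = 6.90e-05). Over all alternatives run, the strain change ran from 1.15 to 3.09 for Masp1 and from 1.28 to 2.08 for Masp2. C1ra, the protease carried by C1q, was higher by 1.02 ± 0.14 (adjusted p = 0.00203), the reverse of the C1q chains, and C2, the partner of C4, by 1.07 ± 0.30 (adjusted p = 0.0430). The C2 call held in 4 of 12 fits that left out 1 array. On means of same-numbered arrays C1ra (adjusted p = 0.139) and C2 (adjusted p = 0.315) were not called, whereas Masp1 (adjusted p = 0.0108) and Masp2 (adjusted p = 0.0222) were. C2 is the next gene to Cfb in RefSeq order. Masp2 was also higher after IL-4 at 18 h (1.23 ± 0.18, adjusted p = 0.00408, limma). The same held at 4 h (0.81 ± 0.18, adjusted p = 0.0344, held in 1 of 8 fits without 1 array). Under the alternatives the 18 h change of Masp2 ran from 0.30 to 1.39 and was called in 17 of 19. Its 4 h change ran from 0.18 to 0.95 and was called in 8 of 19. Masp1 was not well above background on 2 of 6 C57BL6 arrays. None of 8 was called lower at 18 h.

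Among regulators, Cd55, a membrane inhibitor that speeds decay of the convertases, changed by -2.08 ± 0.35 at 18 h over strains (adjusted p = 0.00818). It was not well above background on either Balb/c 18 h array, where a fall was called (adjusted p = 0.0390, limma). That fall was 3.67-fold against the lowest signal well above background on each array, or the probe's own if higher. On replicate 1 the probe's own -4.68 was used although not well above background, so 3.67-fold is not a strict lower limit. That Balb/c call held in 1 of 4 fits without 1 array, and the call over strains in 8 of 8.

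Of 9 tested receptors 2 were lower in Balb/c and 0 higher, beside 17.6% of all genes called. C5ar2, the second receptor of the C5a fragment, differed by -4.46 ± 0.18 (adjusted p = 2.71e-06, limma), with 0.69 to 2.05 in C57BL6 and -4 to -2.51 in Balb/c. C5ar1, the main C5a receptor, differed by -1.87 ± 0.40 (adjusted p = 0.0163), and by the same size with adjusted p = 0.185 on means of same-numbered arrays, where C5ar2 was called (adjusted p = 0.00513). Over all alternatives run, the strain change ran from -2.21 to -0.66 for C5ar1 and from -4.64 to -3.19 for C5ar2. After 18 h of IL-4 Itgax, the alpha chain of complement receptor CR4, was higher in both strains (3.05 ± 0.39 in C57BL6, adjusted p = 0.00533; 1.93 ± 0.39 in Balb/c, adjusted p = 0.0360), from 2.01 and 2.91 to 5.44 and 5.57 in C57BL6 and from 3.35 and 2.93 to 5.52 and 4.61 in Balb/c. C5ar2 (-1.11 ± 0.22, adjusted p = 0.0181) and Cd93 (-0.76 ± 0.17, adjusted p = 0.0294), a surface protein once described as a C1q receptor, were lower. Cd93 was also lower at 4 h (-0.89 ± 0.17, adjusted p = 0.0195). Without 1 array the calls held in 2 of 8 fits for C5ar2 and 1 of 8 for Cd93 at 18 h, 2 of 8 for Cd93 at 4 h and 8 of 8 for Itgax over strains, but 3 of 4 for Itgax in C57BL6 and 1 of 4 in Balb/c.
The replicate block raised these counts as well, to 13 of 26 at 18 h (24.9% of all genes in that fit), 8 of 26 at 4 h (23.2%) and 8 of 26 for 18 h against 4 h (16.8%), where 1 was called without it (Itgax, 1.91 ± 0.28, adjusted p = 0.00994).

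**Figure D5:**
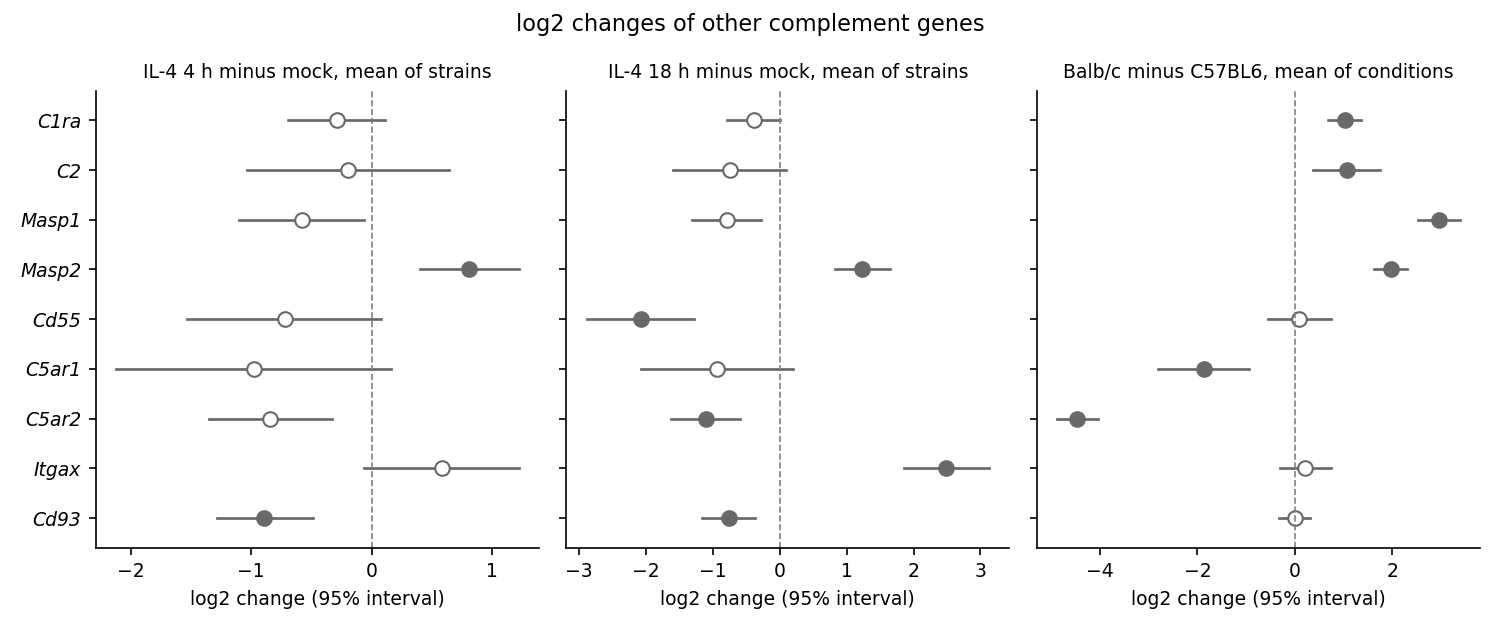
Log2 change with 95% interval for other complement genes named by the rule, in the same 3 comparisons, each panel with its own axis range; filled points passed an adjusted p of 0.05. Masp1, Masp2, C1ra and C2 lie above 0 and C5ar1 and C5ar2 below it between strains, and Itgax at 2.49 and Cd55 at -2.08 lie farthest from 0 at 18 h.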

How the data were processed

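The authors deposited, per the file headers, Agilent Feature Extraction text with the background-subtracted processed green intensity of each spot (version 9.5.1.1, per the submitters' processing notes), and a table holding a linear ratio per probe, which the values showed to be scaled signal divided by the average of both C57BL6 mock arrays (column medians 0.936 to 1.132). Control spots and outlier spots were left out, log2 intensities of a probe's spots averaged and the array's 75th percentile over non-control spots (1196 to 1690 intensity units) subtracted. Of 41174 probes 27371 were kept because both arrays of 1 or more groups read them well above background, and each gene was tested on its brightest kept probe. A linear model with 1 mean for each of the 6 groups was run in limma 3.58.1 (R 4.3.3; residual degrees of freedom 6, prior 2.04), in 11 comparisons that share arrays. The script was tested on simulated data.

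Same-numbered samples deviated together in each strain (correlations of replicate deviations 0.62, 0.30 and 0.15 in C57BL6, 0.50, 0.32 and 0.65 in Balb/c). The series text gives 2 experiments on different littermates without saying which number marks which, so the pairing within strain rests on both facts. The highest correlations, 0.62 (C57BL6 mock with 4 h) and 0.65 (Balb/c 4 h with 18 h), came from groups whose replicates were split alike over slides. Slide and experiment cannot be told apart there. Between strains the correlations ran from -0.31 to 0.14, so the 0.30 and 0.15 in C57BL6 are weak grounds for pairing. The members, lists and motifs were chosen with earlier results of these data known. Other complement genes were named if called in at least 1 comparison with no overlap of values between its groups, and the 3 genes most correlated with each member were named. A gene that the rule would name is not reported here. Of the marker lists, B cell, T cell, erythroid and mast cell genes had 1, 0, 0 and 0 members higher and 1, 0, 0 and 2 lower in Balb/c over conditions, and of dendritic and stromal cell genes 2 and 1 were higher. The alternatives tried were other scalings, normexp, no and stricter probe filters, the deposited ratios, slide and replicate blocks, fewer arrays and the mean of a gene's probes. Added after seeing the data were means of same-numbered arrays, 2 per strain, and the percentile over probes, used in a first run before the percentile over spots replaced it.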

Additional observations from a re-analysis of the deposited data

How the results depend on the processing

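The numbers of members called moved most at 18 h of IL-4. For 18 h against mock over strains (2 called) the number was 1 with median scaling, normexp, no filter, the deposited ratios or only the arrays compared, 4 with the replicate block, and 1 to 2 leaving out an array. In C57BL6 (1 called) it was 0 with quantile normalization, median scaling, normexp, no filter, the deposited ratios, the slide block, only the arrays compared or the mean of probes, 3 with the replicate block, and 0 to 0 leaving out an array. In Balb/c (1 called) it was 0 with normexp, the slide block or only the arrays compared, 3 with the replicate block, and 0 to 1 leaving out an array. For 18 h against 4 h (1 called) it was 2 with quantile normalization, the all-array filter, the slide block or the mean of probes, 0 with normexp, 3 with the replicate block, and 0 to 2 leaving out an array. Between strains (4 called) it was 1 on means of same-numbered arrays and 3 to 4 leaving out an array, and in mock 1 to 1. The strain call of Cfb was also lost with median scaling, normexp, no filter and the slide block.

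Of the other complement genes, 8 were called between strains in the main fit. There the slide block and means of same-numbered arrays called 4, normexp 5, and fits leaving out an array 6 to 8. In mock normexp called 1, against 4 in the main fit. At 18 h over strains (6) normexp called 1 and the replicate block 13, with 3 to 5 leaving out an array. In C57BL6 (2) normexp and the mean of probes called 1, only the arrays compared 0, the slide block 4 and the replicate block 10, with 0 to 2 leaving out an array. In Balb/c (2) quantile normalization and the all-array filter called 1, median scaling, normexp, no filter and only the arrays compared 0, and the replicate block 7, with 0 to 1 leaving out an array. Against 4 h (1) the slide block called 2 and the replicate block 8, with 0 to 2 leaving out an array. At 4 h over strains (2) normexp called 0, no filter, only the arrays compared and the mean of probes 1, and the replicate block 8, with 0 to 1 leaving out an array. At 4 h in C57BL6 (0) the all-array filter and the slide block called 1 and the replicate block 2, and in Balb/c (0) the replicate block 1, with 0 to 1 leaving out an array. The cause was not tested.

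Between strains C1qb was called under each of 22 alternatives run (adjusted p up to 0.0153, limma), and C1qa and C1qc under 21 of 22, all but means of same-numbered arrays (adjusted p = 0.119 and 0.143). Cfb at 18 h over strains was called under each of 19, whereas Cfb between strains was called under 8 of 22. C3 at 18 h over strains was called under 7 of 19, with adjusted p from 0.00422 to 0.152 and changes from -1.05 to -0.55. No called member change reversed. Masp2 at 18 h in C57BL6 was -0.01 with normexp (1.64 in the main fit) and was called under 9 of 15. Normexp moved the median of all genes at 18 h over strains to -0.36 and called 627 genes against 1726, and the replicate block called 4594. The counts of all genes ran from 130 (normexp) to 3201 (replicate block) at 18 h in C57BL6 (789), 17 (only the arrays compared) to 2786 in Balb/c (687), 131 (normexp) to 3094 against 4 h (687), 24 (normexp) to 3056 at 4 h in C57BL6 (595), 0 (only the arrays compared) to 1344 in Balb/c (264), 139 (normexp) to 4269 over strains (1241), and 30 (normexp) to 990 between strains in mock (967). With normexp the share of calls that were higher was 91.7% against 48.6% at 4 h in C57BL6, 100% of 3 calls against 65.9% in Balb/c, 71.2% against 43.6% over strains, and 23.7% against 37.6% for 18 h against 4 h. Between strains the slide block called 1049 genes, normexp 484 and means of same-numbered arrays 444, against 3247. The replicate block could not be fitted between strains, since the numbers nest in strain. The 2 arrays per group limit the precision.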

Other observations

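The genes beside the C1q cluster, picked after the values of the cluster were seen and taken in RefSeq order (GRCm38.p6), were read in the same fit. Luzp1 (0.18 ± 0.10, adjusted p = 0.272, limma), Kdm1a (0.18 ± 0.08, adjusted p = 0.158), Zbtb40 (-0.08 ± 0.08, adjusted p = 0.558) and Cdc42 (-0.07 ± 0.10, adjusted p = 0.677) were the tested genes among the 5 on either side, and none was called between strains, beside -2.92 ± 0.19 for C1qb.

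Of 8 tested genes within 5 of C3, 3 were lower and none higher at 18 h of IL-4, beside 9.37% of all genes called. Tnfsf14, which encodes the cytokine LIGHT, fell by 1.08 ± 0.15 at 18 h (adjusted p = 0.00370, limma) and was lower in Balb/c (-0.79 ± 0.13, adjusted p = 0.00389), the same directions as C3, while Trip10 on the other side was not called at 18 h (0.21 ± 0.17, adjusted p = 0.549). Dennd1c (-0.81 ± 0.11, adjusted p = 0.00294) and Vav1 (-0.69 ± 0.10, adjusted p = 0.00380) were the others that were lower, and Tubb4a, Tnfsf9, Gpr108 and Adgre1 were not called. Of 7 tested genes near Cfp, Timp1, an inhibitor of matrix proteases, alone was called at 18 h (higher by 1.21 ± 0.13, adjusted p = 0.00106), beside -0.12 ± 0.11 for Cfp, and Usp11 (0.76 ± 0.09, adjusted p = 6.48e-04) and Cdk16 (0.34 ± 0.08, adjusted p = 0.0203) were the 2 called between strains, both higher in Balb/c. Between C4b and Cfb, Cyp21a1, a steroid hydroxylase, was lower in Balb/c (-0.77 ± 0.14, adjusted p = 0.00660), and the 4 other tested genes in that stretch, Stk19, Dxo, Skiv2l and Nelfe, were not called. Cyp21a1 was well above background on 3 of 6 Balb/c arrays, so its lower side is near the floor. Over all genes 17.6% were called between strains.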
